A study of Mus musculus with 6 samples.

Results

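Ribosomal protein genes and the genes of translation initiation, elongation and termination factors were followed in mouse fat before and after grafting. The members are the protein-coding genes with a cytosolic ribosomal protein, eIF, eEF or release factor (Etf1 or Gspt1) name. Kinases of eIF2 and of ribosomal protein S6 were left out. Of 12163 genes in the deposited table, 124 met this rule: 78 ribosomal protein genes and 46 genes for factors and their regulators. The GENCODE M21 annotation holds 150 such genes, and the other 26 were not analysed here. The table lists mainly genes that differed between the groups, so a count over listed members is not a count over the whole family.

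All mice were wild type C57BL/6, and total RNA of fat tissue was sequenced in 3 libraries from before grafting and 3 libraries from 7 days after grafting. The sources used here do not give the fat depot, the host, the age or the number of animals. Nothing says that the libraries came from separate animals, so p-values measure the spread between these libraries, which may be technical. Values are normalized counts (reads per gene divided by 1 size factor per library), in the order of replicates 1 to 3. Listed totals ran from 12846005 to 15443409 per library, and the full depth is unknown.

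The ribosome has a small subunit, which reads the mRNA, and a large subunit, which joins the amino acids. Each ribosomal protein is a structural part that must be made in step with the others. Initiation factors bring the small subunit to the capped end of an mRNA, elongation factors drive the ribosome along it, and release factors free the finished protein. mRNAs of ribosomal proteins and of several factors start with a pyrimidine run, the terminal oligopyrimidine or TOP tract, through which growth signals set their translation. Fat is built mostly of adipocytes by mass, and its translation answers to insulin through the mTOR kinase and the 4E-binding proteins.

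The sequence at the annotated start was compared between ribosomal protein and factor genes. A TOP start was counted where a C followed by at least 4 more pyrimidines (C or T, sense strand only) began within 5 bases of a RefSeq start. A gene counted if any of its starts qualified. Such a start was found in 26 of 59 ribosomal protein genes with a promoter entry (44.1%) and in 7 of 34 factor and regulator genes (20.6%). It was found in 5718 of all 27025 genes with an entry (21.2%) and in 1841 of 7727 listed protein-coding genes (23.8%). A longer run had at least 8 pyrimidines within 50 bases of the start, a window chosen after seeing the data. It was present in 50 of the 59 ribosomal protein genes (84.7%) and in 16 of the 34 factor genes (47.1%). Over all genes with an entry the share was 32%, and over listed protein-coding genes 33.7%. The following windows span 20 bases before to 20 bases from the annotated start, 5′ to 3′ on the gene's strand, from RefSeq on GRCm38.p6, with the pyrimidine run in capitals. They were chosen after their values were seen, as runs in 5 ribosomal protein genes and 3 factor genes and as 2 helicase genes without one.
Rpl27a: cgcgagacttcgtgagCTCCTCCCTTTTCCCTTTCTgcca
Rpl15: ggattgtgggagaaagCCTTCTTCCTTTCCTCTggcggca
Rpl35: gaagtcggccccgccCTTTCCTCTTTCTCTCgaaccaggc
Rps6: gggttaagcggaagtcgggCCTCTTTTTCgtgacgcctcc
Rps2: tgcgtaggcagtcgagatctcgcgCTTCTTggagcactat
Eef1a1: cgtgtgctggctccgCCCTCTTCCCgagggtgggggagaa
Eif3f: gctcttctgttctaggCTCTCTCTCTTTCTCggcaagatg
Eif3l: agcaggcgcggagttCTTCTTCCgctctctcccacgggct
Eif4a1: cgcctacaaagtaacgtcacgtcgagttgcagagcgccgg
Eif4a2: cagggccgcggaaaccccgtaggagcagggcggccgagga

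These windows lie at chr7:109519175-109519214 (plus strand) for Rpl27a, chr14:18270967-18271006 (minus) for Rpl15, chr2:39005112-39005151 (minus) for Rpl35, chr4:86857348-86857387 (minus) for Rps6 and chr17:24720043-24720082 (plus) for Rps2. Those of the factors lie at chr9:78481705-78481744 (minus) for Eef1a1, chr7:108934395-108934434 (plus) for Eif3f, chr15:79075203-79075242 (plus) for Eif3l, chr11:69672404-69672443 (minus) for Eif4a1 and chr16:23107448-23107487 (plus) for Eif4a2. An annotated start can lie away from the start used in fat, so the absence of a run says only that these letters are not in the window.

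Ribosomal protein genes were higher in the grafts almost throughout. Of 78 listed, 77 passed the filter on low values, and 70 of those were called higher and 0 lower (limma on log2(value + 1), Benjamini-Hochberg adjusted p under 0.05). Over all 10854 genes tested, 41.3% were called higher and 39.2% lower. The median log2 fold change of the 77 was 0.76, with a range of 0.23 to 2.23, and that of all genes tested was 0.28. In 76 of the 77 the lowest graft library lay above the highest library from before grafting, and over all genes tested 49.6% separated in that direction and 48.0% in the other. The 72 genes without the paralogs formed a narrow band, 0.23 to 1.15 with an SD of 0.19 across genes.

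**Figure D1:**
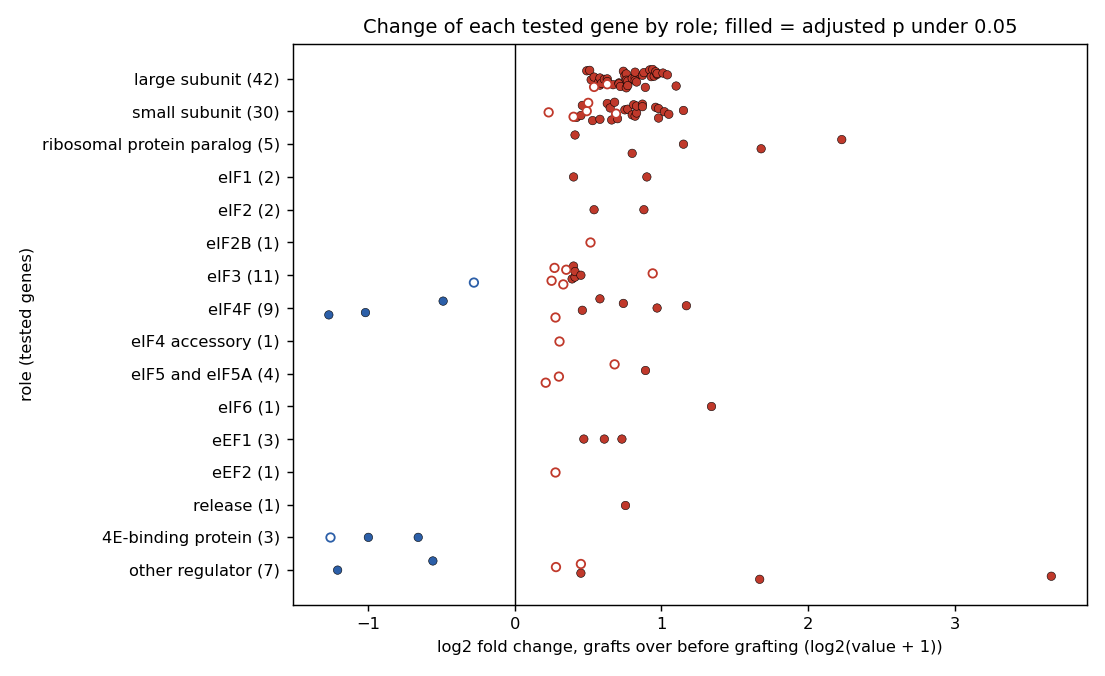
Log2 fold change, grafts over before grafting, of each of 123 tested genes (x axis) by role (y axis, number tested in brackets), with filled points for adjusted p under 0.05, red above and blue below 0. The subunit genes lie between 0.23 and 1.15 and all to the right of 0, while eIF4F, the 4E-binding proteins and other regulators lie on both sides or to the left.

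In the large subunit 40 of 42 genes rose, with a median of 0.76. Rplp0, a protein of the stalk that recruits elongation factors (chr5:115559467-115563727, plus strand), had 14814, 13023 and 12814 normalized counts before grafting and 24628, 23775 and 23382 in the grafts. All graft libraries lay above all others, at a mean of 23928 ± 637 against 13550 ± 1100 (SD, n = 3 each), and the log2 fold change was 0.82 (SE 0.10, adjusted p = 6.35e-04, limma). Rpl17, which lines the exit of the peptide tunnel, showed the largest rise of the subunit, from 1410, 1452 and 1697 to 3318, 2958 and 3471 (log2 fold change 1.10, SE 0.11, adjusted p = 1.99e-04, limma). Rpl41, the smallest protein of the set, rose from 7443, 8535 and 6443 to 15745, 15182 and 15044, a log2 fold change of 1.04. The smallest called rise in the subunit was that of Rpl19, from a mean of 5373 to 7551 (log2 fold change 0.49, adjusted p = 0.00944, limma), and its call was lost when listed totals or upper quartiles were made equal.

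Rpl23a and Rpl30 were the members of the large subunit that did not pass. Rpl30 had 2129, 2506 and 2850 before grafting and 5012, 4189 and 2710 in the grafts, so its graft replicate 3 lay inside the range of the other group (log2 fold change 0.63, SE 0.22, adjusted p = 0.115, limma). Rpl23a went from a mean of 2345 to 3343 (0.54, adjusted p = 0.0571, limma), and 59.7% of its exon bases overlap Tlcd1 on the opposite strand. Whether the counting used strand is not given, so reads of such pairs may not be told apart.

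In the small subunit 25 of 30 genes rose, with a median of 0.73. Rps2, a protein near the mRNA entry (chr17:24718116-24721929, plus strand), rose most of these, from 6490, 6405 and 5239 to 14966, 12994 and 12158, a 2.21-fold rise (log2 fold change 1.15, SE 0.13, adjusted p = 3.35e-04, limma). Each graft library was far above each library from before grafting. Rpsa, which also serves as a laminin receptor and had the highest mean of the subunit, went from 13098, 11345 and 12787 to 17556, 16139 and 16128, a smaller rise (log2 fold change 0.42, adjusted p = 0.0233, limma). Rps6, the substrate of S6 kinase, rose by as little (0.46, adjusted p = 0.0216, limma), from a mean of 8081 ± 566 to 11104 ± 1043. The calls of Rpsa and Rps6 were lost under all 4 scalings described below for the factors, and when single libraries were left out: before replicate 2, before replicate 3, graft replicate 1 or graft replicate 2 for both, and graft replicate 3 for Rpsa. Without 1 of these libraries the adjusted p of Rpsa was 0.0563 to 0.0817.

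Rps15, Rps21, Rps24, Rps27 and Rps29 did not pass. Rps24 moved least of all ribosomal protein genes, from 7180, 6448 and 7177 to 8454, 7899 and 7971 (log2 fold change 0.23, SE 0.09, adjusted p = 0.21, limma), and its groups did not overlap. Rps29, a short protein with a zinc finger, had 2017, 2541 and 1332 before grafting and 3442, 2739 and 3021 after (0.69, SE 0.22, adjusted p = 0.0828, limma). Its change was larger than that of many called genes, and its libraries from before grafting were spread wide. Rps27a, which is made as a fusion with ubiquitin, rose from 1697, 2026 and 2321 to 3548, 5688 and 3041 (0.98, adjusted p = 0.0197, limma), with graft replicate 2 well above the others. It lost its call without before replicate 1 or without before replicate 2.

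Paralogs of ribosomal proteins are encoded by separate genes. The 5 that were tested rose, 1 of them (Rpl36al) having passed the filter only through the grafts, and their log2 fold changes ran from 0.41 to 2.23. Rpl22l1, the paralog of the RNA-binding protein Rpl22, rose from 271, 216 and 236 to 667, 444 and 513 (log2 fold change 1.15, SE 0.18, adjusted p = 0.00207, limma). Rpl22 itself went from 2687, 2615 and 2282 to 3913, 3735 and 3664 (0.58, adjusted p = 0.00339, limma). The ratio of Rpl22 to Rpl22l1 counts was 9.67 to 12.1 before grafting and 5.87 to 8.41 in the grafts, without overlap.

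Rpl39l, known from testis and some tumours, had 14.8, 19.2 and 11.8 before grafting and 38.2, 88.3 and 121 in the grafts, a rise with a wide spread between grafts (log2 fold change 2.23, SE 0.44, adjusted p = 0.00884, limma). Rpl39 was 1538, 1563 and 1470, then 3205, 2895 and 2796. Rpl36al rose from 7.9, 9.1 and 6.9 to 37.2, 28.1 and 19.8 (1.68, adjusted p = 0.0139, limma), passed the filter only through the grafts, and lost its call without before replicate 3 (adjusted p = 0.0594). Its exons share 24.5% of their bases with a neighbouring coding gene model on the same strand. Rps27l, a paralog induced by p53, rose from 824, 944 and 824 to 1469, 1513 and 1519 (0.80), and Rpl7l1 from 1053, 1184 and 1112 to 1563, 1420 and 1475 (0.41, adjusted p = 0.0161, limma). The log2 ratio of paralog to partner overlapped between the groups for Rpl39l, Rps27l and Rpl7l1, with differences of 1.27, 0.29 and -0.13, and did not for Rpl36al (0.91). The call of Rpl7l1 was lost under all 4 scalings described below for the factors, and without before replicate 1, before replicate 3, graft replicate 1 or graft replicate 3 (adjusted p = 0.0509 to 0.0623).

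Rpl3l, the striated muscle form of Rpl3, was too low to test. It had 0.0, 4.1 and 0.0 before grafting and 2.0, 11.6 and 54.4 in the grafts, so its level rested on graft replicate 3. Rpl3 went from 8633, 7742 and 7792 to 13795, 12544 and 11177. None of the 7 skeletal muscle markers was in the table, and they were not analysed here.

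Per kilobase of listed gene length, ribosomal protein genes other than paralogs had a median of 2353 normalized counts before grafting and 3882 in the grafts. The highest was Rplp1, another stalk protein, at 12892 and 24449 per kilobase. Rpl13a, which also takes part in silencing of inflammatory mRNAs, was the lowest at 95.3 and 183 per kilobase, although it is a standard part of the large subunit. The next lowest of the large subunit, Rpl35a, stood at 537 and 1032 per kilobase. Rpl13a shares 29.4% of its exon bases with another coding gene model on the same strand, and the part of that overlap in its low level was not tested. Factors and regulators had medians of 445 and 569 per kilobase, with Eef1a1 far above at 29897 and 41437.

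**Figure D2:**
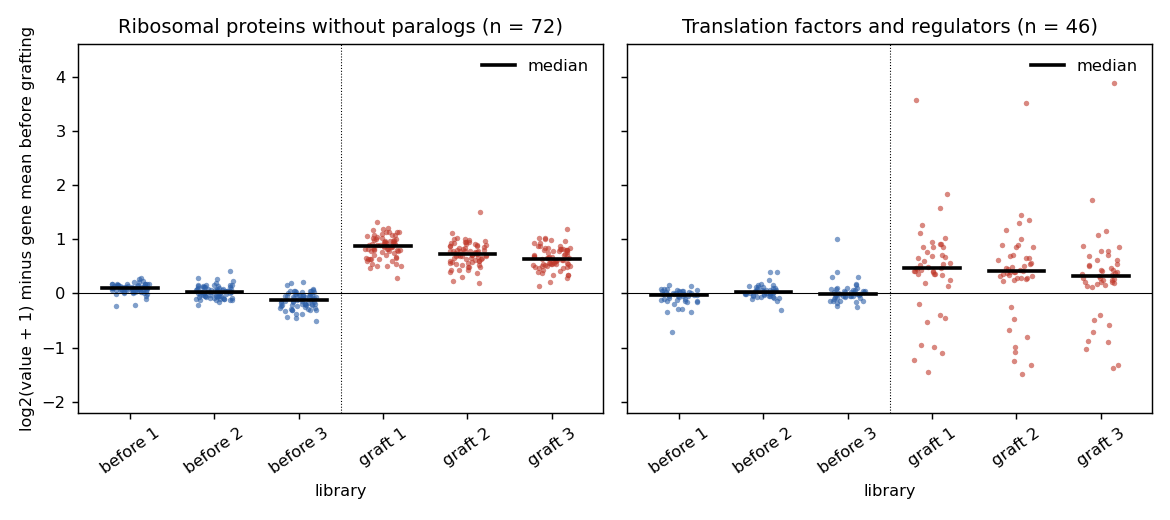
Each point is 1 gene in 1 library, as log2(value + 1) minus the gene's mean before grafting (y axis), for 72 ribosomal protein genes (left) and 46 factor and regulator genes (right), with the median as a black bar. The median of ribosomal protein genes was 0.87, 0.72 and 0.64 in the grafts against 0.46, 0.41 and 0.33 for factors, and the factor genes are more widely spread.

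Most ribosomal protein genes followed a shared order of libraries in the grafts. Of the 72, 64 were highest of the grafts in replicate 1 and 56 lowest in replicate 3, and of the libraries from before grafting 49 were highest in replicate 1 and 51 lowest in replicate 3. Replicate 2 from before grafting was highest for 18 and lowest for 18. Of the 46 factors and regulators, 32 were highest in graft replicate 1 and 35 lowest in graft replicate 3. The order over all genes tested was not counted, so it is not known whether this order is particular to these genes. The median deviation of the 72 from the mean before grafting was 0.10, 0.03 and -0.11 there, against 0.87, 0.72 and 0.64 in the grafts. The gap between the groups was larger than the spread within either. Summed over the large subunit, the value was 1.19 to 1.24 times that of the small subunit before grafting and 1.23 to 1.26 times in the grafts.

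Genes grouped by name as initiation factors did not all move in 1 direction. Among them are Eif6, Eif5a and Eif4a3, whose differing roles are given below. Of 31 tested eIF genes 27 had a positive and 4 a negative log2 fold change, and 16 were called higher and 3 lower. Over all 10854 genes tested, 5509 were positive and 5345 negative. The log2 fold changes of the eIF genes ran from -1.27 to 1.34 around a median of 0.41. Genes named as elongation factors (eEF1 and eEF2) followed ribosomal proteins in direction, with 3 of 4 called higher and a median of 0.54. Over all 46 factors and regulators 23 rose (50%), 7 fell (15.2%) and 16 did not pass, with a median of 0.41. The share of rises was 51.6% for eIF genes, and these lie near the 41.3% of all genes tested. The split of the 46 moved with the scaling: it was 15 and 8 after rescaling by median ratios, 14 and 8 when listed totals were made equal, 14 and 9 when upper quartiles were, and 18 and 8 by median ratios of other genes. Over all 10854 genes tested the higher and lower calls were then 3901 and 4827, 3700 and 4780, 3564 and 5047, and 4065 and 4632. The count of ribosomal protein genes called higher was 62 to 64 under these, with 0 lower.

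The complex eIF4F binds the cap and unwinds the mRNA. Of 9 genes with the name of an eIF4F subunit (eIF4A, eIF4E or eIF4G), 5 rose, 3 fell and 1 did not pass. These shares, 55.6% higher and 33.3% lower, lie not far from the 41.3% and 39.2% of all genes tested. The 9 include Eif4a3, Eif4e2 and Eif4g2, whose differing roles are given below. The helicase subunit is encoded by Eif4a1 and Eif4a2. Eif4a1 (chr11:69666936-69672423, minus strand) rose from 4323, 4851 and 4678 to 11042, 10447 and 9696, a 2.25-fold rise (log2 fold change 1.17, SE 0.10, adjusted p = 7.39e-05, limma). Eif4a2 (chr16:23107444-23114136, plus strand) fell from 7625, 7457 and 7902 to 3561, 3644 and 4141 (-1.02, SE 0.10, adjusted p = 1.37e-04, limma). The more abundant helicase mRNA therefore differed between the groups, with Eif4a2 first in each library from before grafting and Eif4a1 in each graft. Per kilobase the means were 1065 for Eif4a1 and 1435 for Eif4a2 before grafting, and 2398 and 709 in the grafts.

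Among genes named for the cap-binding subunit, Eif4e and Eif4e2 rose and Eif4e3 fell. Eif4e, the main cap-binding protein (chr3:138526179-138559696, plus strand), rose from 762, 881 and 988 to 1890, 1755 and 1505 (log2 fold change 0.97, SE 0.13, adjusted p = 0.00106, limma). Eif4e3, a family member with an atypical cap grip (chr6:99625135-99666771, minus strand), fell from 1264, 1460 and 1449 to 590, 583 and 555 (-1.27, SE 0.10, adjusted p = 5.30e-05, limma). All grafts lay below all other libraries, with little spread among them, and 14.8% of its exon bases belong also to Gm20696 on the same strand. Eif4e2, a cap-binding repressor, rose from 1066, 1120 and 1060 to 1716, 1577 and 1554 (0.58, adjusted p = 0.00217, limma).

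The scaffold subunit joins the helicase, the cap-binding protein and eIF3. Eif4g1 fell from 11252, 13518 and 11755 to 9213, 8754 and 8067 (log2 fold change -0.49, SE 0.11, adjusted p = 0.0161, limma), and its call was lost without graft replicate 2 (adjusted p = 0.0641) or graft replicate 3 (0.068). Eif4g3 rose from 2281, 2041 and 2134 to 3251, 2920 and 2724 (0.46, adjusted p = 0.0141, limma), a call lost under rescaling by median ratios, equal totals or equal upper quartiles and without before replicate 3 or graft replicate 2. Eif4g2, which lacks the cap-binding protein's site, had 13111, 13890 and 13755 before grafting and 16178, 17005 and 16071 after (0.27, adjusted p = 0.096, limma).

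The log2 ratio of Eif4a2 to Eif4a1 was 0.82, 0.62 and 0.76 before grafting and -1.63, -1.52 and -1.23 in the grafts, a difference of -2.19. That of Eif4e3 to Eif4e was 0.73, 0.73 and 0.55, then -1.68, -1.59 and -1.44, a difference of -2.24. That of Eif4g3 to Eif4g1 rose from -2.30, -2.73 and -2.46 to -1.50, -1.58 and -1.57. These ratios do not depend on the scaling of a library, and none of the groups overlapped. Each gave p = 0.1 in a two-sided exact permutation test, the smallest that 3 against 3 libraries allow, and 0.22 after Benjamini-Hochberg adjustment over 11 paralog pairs, so no pair could pass.

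**Figure D3:**
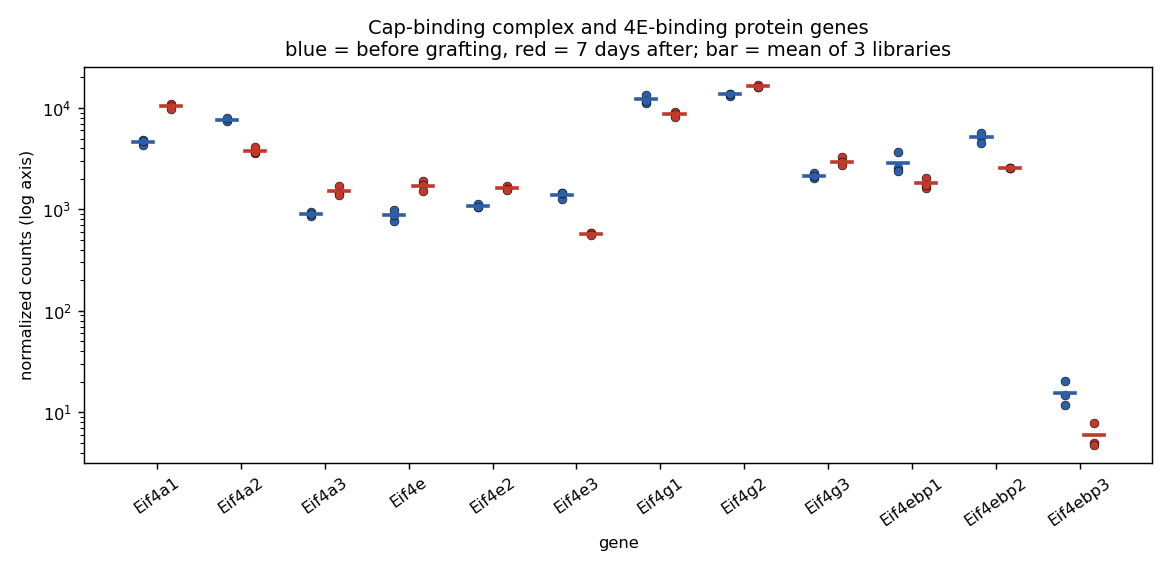
Normalized counts (y axis, log scale) of 9 genes with the name of an eIF4F subunit and 3 4E-binding protein genes in each library. Blue is before and red 7 days after grafting, with a bar at the mean of 3 libraries. Eif4a1 and Eif4a2 swap order, as do Eif4e and Eif4e3, and the means of all 3 4E-binding protein genes lie lower in the grafts.

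Eif4a3, a helicase of the exon junction complex in spite of its name, rose from 943, 867 and 892 to 1705, 1449 and 1382 (log2 fold change 0.74, adjusted p = 0.00155, limma). Eif4h, which stimulates the helicase, had 3958, 4535 and 3588 before grafting and 5376, 4808 and 4635 in the grafts (0.30, adjusted p = 0.169, limma).

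The 4E-binding proteins hold Eif4e away from the scaffold until mTOR phosphorylates them. Of the 3 genes 2 were called lower, as were 39.2% of all genes tested. Eif4ebp2 went from 5205, 5694 and 4552 to 2585, 2579 and 2535, so it fell by 1.00 on the log2 scale (SE 0.10, adjusted p = 2.43e-04, limma). The 3 grafts were nearly equal, at 0.5 times the mean level before grafting. Eif4ebp1, a target of insulin signalling, went from 2553, 3723 and 2385 to 2057, 1627 and 1722 (-0.66, SE 0.18, adjusted p = 0.0397, limma). Its call was lost without before replicate 1 (adjusted p = 0.0654) or 2 (0.0568), and without graft replicate 2 (0.134) or 3 (0.122). Eif4ebp3 was near the detection limit at 11.8, 20.3 and 14.8, then 5.0, 4.8 and 7.9 (-1.26, adjusted p = 0.0806, limma). It passed the filter only through the libraries from before grafting, and 67.3% of its exon bases belong also to a coding gene model on the same strand.

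The remaining genes with an eIF name mostly rose or did not pass. Eif6 (chr2:155819832-155826925, minus strand) keeps free large subunits from joining small ones and takes part in making them. It had the largest rise of the 31 tested eIF genes. It went from 692, 703 and 641 to 2031, 1672 and 1503, a 2.54-fold rise (log2 fold change 1.34, SE 0.13, adjusted p = 1.36e-04, limma), so every graft held more than each library from before grafting. Eif5a, which relieves ribosomes stalled on difficult peptides, rose from 4794, 5399 and 4715 to 10137, 9012 and 8521 (0.89, adjusted p = 5.41e-04, limma). Its paralog Eif5a2 had 145, 174 and 220, then 336, 280 and 245 (0.68, adjusted p = 0.0577, limma), and it passed without before replicate 3 (adjusted p = 0.0405).

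Of eIF2, which carries the initiator tRNA, the alpha and beta genes were listed and both rose, and the gamma genes were not analysed here. Eif2s2 (beta) went from 1050, 1158 and 1294 to 2107, 2164 and 2134 (log2 fold change 0.88, adjusted p = 4.46e-04, limma), and Eif2s1 (alpha, the stress kinases' target) from 990, 1026 and 1055 to 1617, 1514 and 1349 (0.54, adjusted p = 0.00581, limma). Eif1a, which helps the small subunit scan for a start codon, rose from 891, 1057 and 1339 to 2099, 2006 and 1962 (0.90, adjusted p = 0.00284, limma). Eif1, which guards the choice of start codon, rose from 4036, 4626 and 4194 to 5901, 5531 and 5475 (0.40, adjusted p = 0.0207, limma), a call lost under all 4 scalings named above and without before replicate 1, before replicate 3, or graft replicate 1, 2 or 3 (adjusted p = 0.0514 to 0.079). Eif2b2, part of the exchange factor for eIF2, had 394, 388 and 396, then 715, 546 and 454 (0.51, adjusted p = 0.0854, limma), and it passed without graft replicate 3 (adjusted p = 0.0254).

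The eIF3 complex, the large platform on the small subunit, moved little. Of 11 tested subunit genes 5 (45.5%) were called higher, near the 41.3% of all genes, and 0 lower, with a median of 0.39. Eif3a, the largest subunit, rose from 5164, 4949 and 4823 to 6774, 6846 and 6715 (log2 fold change 0.45, adjusted p = 0.00668, limma). Only Eif3l had a negative value among the 11, at 2357, 2639 and 2335 before grafting and 2130, 2047 and 1850 after (-0.28, adjusted p = 0.116, limma). The calls depended on scaling: under median ratios, equal totals, equal upper quartiles and median ratios of other genes, 1, 0, 0 and 2 of the 11 were called higher, and Eif3l was called lower.

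Among elongation factors, eEF1A delivers charged tRNA to the ribosome, eEF1B recharges it and eEF2 moves the ribosome on. Eef1a1, the most abundant member, rose from 78737, 71251 and 73608 to 104662, 104887 and 100360 (log2 fold change 0.47, SE 0.11, adjusted p = 0.0181, limma), and made up 32.9% to 38.8% of all factor counts. Its call was lost under rescaling by median ratios (adjusted p = 0.069), equal totals (0.134) and equal upper quartiles (0.138), and without before replicate 2 (0.0649), before replicate 3 (0.0506), graft replicate 2 (0.111) or graft replicate 3 (0.0553). Eef1b2 rose from 3143, 2915 and 3113 to 5194, 5003 and 4971 (0.73, adjusted p = 4.63e-04, limma), and Eef1g, its partner, from 5339, 4933 and 4403 to 7856, 7433 and 7112 (0.61, adjusted p = 0.00368, limma). Eef2 had 30316, 30116 and 26110 before grafting and 36744, 35194 and 32180 in the grafts (0.27, adjusted p = 0.231, limma).

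Eef2k, the kinase that halts eEF2, fell from 941, 1163 and 1073 to 548, 424 and 406 (log2 fold change -1.21, SE 0.14, adjusted p = 5.43e-04, limma). Of 3 tested lysine methyltransferases of eEF1A, 2 rose from low levels: Eef1akmt3 from 2.0, 3.0 and 8.9 to 57.2, 55.3 and 71.2 (3.66, SE 0.48, adjusted p = 9.21e-04, limma), and Eef1akmt4 from 19.7, 24.3 and 33.4 to 92.4, 70.8 and 86.1 (1.67, adjusted p = 0.00353, limma). Eef1akmt3 passed the filter only through the grafts and had the largest change of all members, with groups far apart. Eef1akmt2 had a mean of 153 before grafting and 210 in the grafts (0.45, adjusted p = 0.24, limma). Eef1e1, a member by its name and counted with the regulators, rose from 207, 211 and 199 to 275, 293 and 276 (0.45, adjusted p = 0.0497, limma). Its call was lost under all 4 scalings named above and when any 1 library was left out. Exon bases shared with other genes came to 3.68% for Eef1akmt3 (with Mettl1, opposite strand) and 30.7% for Eef1akmt4 (with a coding gene model on the same strand).

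Etf1, the release factor eRF1 that reads stop codons, rose from 2163, 2419 and 2505 to 3869, 4249 and 3831 (log2 fold change 0.75, adjusted p = 8.18e-04, limma). Eif2d, which removes tRNA from used small subunits, fell from 528, 577 and 502 to 370, 337 and 383 (-0.56, adjusted p = 0.0106, limma). Eif4enif1, which carries Eif4e into the nucleus, had 864, 810 and 923, then 1091, 1015 and 1050 (0.28, adjusted p = 0.0985, limma).

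Set against each other, ribosomal proteins gained more than factors. Summed over members, ribosomal proteins made up 2.82%, 2.37% and 2.38% of the listed total before grafting and 4.22%, 3.57% and 3.61% in the grafts. Factors and regulators made up 1.69%, 1.5% and 1.56%, then 1.95%, 1.76% and 1.77%. The ratio of the sums was 1.67, 1.58 and 1.53 before grafting and 2.17, 2.02 and 2.03 in the grafts, a log2 difference of 0.38 with no overlap. This ratio does not depend on library scaling. The sum of factors rests largely on Eef1a1, given above.

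**Figure D4:**
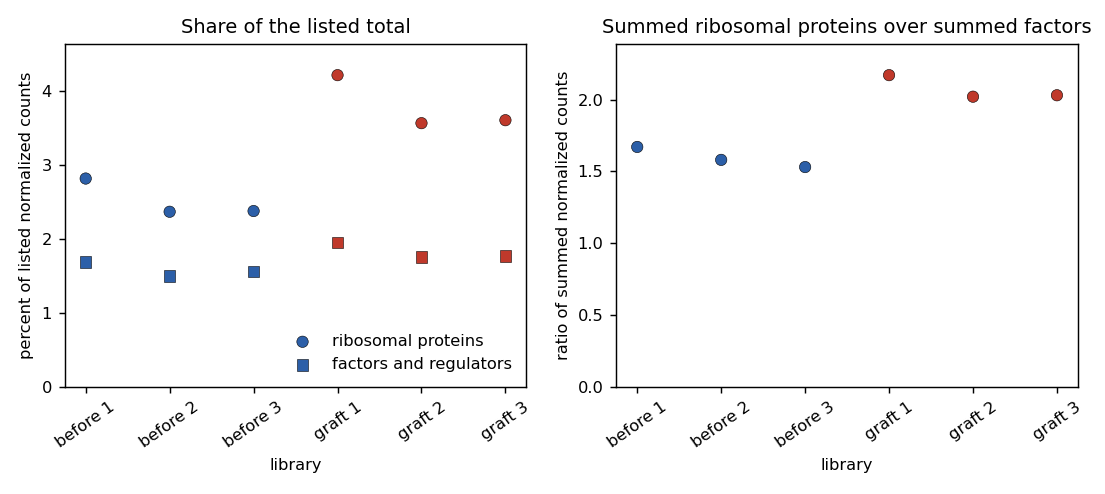
Left, percent of listed normalized counts (y axis) in ribosomal protein genes (circles) and in factor and regulator genes (squares) in each library, and right, the ratio of the sums, blue before and red after grafting. The ratio was 1.53 to 1.67 before grafting and 2.02 to 2.17 in the grafts.

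To ask which factors departed from the ribosomal proteins, libraries were rescaled so that the ribosomal protein members had equal levels, a setting added after seeing the data. On this scale 3 of 46 factors and regulators were higher and 16 lower, with a median log2 difference of -0.34. Over all genes tested 17.8% were higher and 50.4% lower, with a median of -0.47, so the share of lower factors was below the background. Eif6 (0.59, SE 0.12, adjusted p = 0.00553, limma) and Eif4a1 (0.42, SE 0.12, adjusted p = 0.0421, limma) were higher. So was Eef1akmt3 (2.98), which had passed the filter only through the grafts, and Eif4ebp3 (-1.92), counted among the lower, had passed it only through the libraries from before grafting. The furthest below of the others were Eif4e3 (-2.02), Eef2k (-1.96), Eif4a2 (-1.77) and Eif4ebp2 (-1.75), and Eif4g1, Eif3l, Eif3f and Eef2 were also lower, at -1.23, -1.03, -0.50 and -0.48. Eef1b2 (-0.02), Eif4a3 (-0.01) and Etf1 (0.01) lay closest to the ribosomal proteins, with SEs of 0.11, 0.12 and 0.14.

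Genes with and without a TOP start spanned overlapping ranges in both families, which was described and not tested. Among ribosomal protein genes the median log2 fold change was 0.83 for the 26 tested with a TOP start. For the 32 where none was found near an annotated start it was 0.73. A gene counted as without one can carry a run further from that start, as Rpl4 does. The split therefore does not show which mRNAs lack the tract. Among factors the median was 0.28 for the 7 genes with such a start and 0.45 for the 27 without. Rps24 and Rps2, the smallest and the largest change among subunit genes, both carry such a start. With the longer run the medians were 0.77 (49 genes) and 0.70 (9 genes) for ribosomal proteins, and 0.43 (16 genes) and 0.40 (18 genes) for factors.

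Other parts of the translation system went in several directions, and these lists are read against the shares of 41.3% and 39.2% given above. As chosen, the lists held 50 biogenesis, 23 synthetase, 30 polymerase, 15 TOP, 23 stress response, 34 mTOR and 18 quality control genes. Those not in the table were not analysed here, so each count covers only a part of its list. Ribosome biogenesis factors had 16 of 24 tested genes higher and 2 lower, with a median of 0.53. Nhp2, a box H/ACA particle protein, rose by 1.49 on the log2 scale and Npm1, which escorts new subunits, by 1.03, while Nop10 (-0.43) and Sbds (-0.38), which frees Eif6 from new large subunits, fell. Of 15 cytosolic tRNA synthetase genes 12 rose and 0 fell, with Rars at 0.81 and Tars at 0.80. For RNA polymerases I and III, which transcribe rRNA and tRNA, 3 of 12 rose and 3 fell with a median of -0.33: Polr3d rose by 1.48 and Cd3eap by 0.69, and Polr3gl (-1.03) and Gtf3c1 (-0.44) fell. Calls were lost for Nop10 without any 1 library but before replicate 3, for Sbds without before replicate 2 or 3 or graft replicate 2 or 3, and for Gtf3c1 without before replicate 1 or graft replicate 2 or 3, with adjusted p of 0.0687 to 0.146, 0.0977 to 0.121 and 0.0538 to 0.0596.

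Other RNAs known for a TOP tract, the noncoding Gas5 and Snhg1 among them, had 10 of 11 higher and 0 lower, with a median of 0.88, led by Vim (1.38) and Fau (1.18). Genes of the integrated stress response, which lowers initiation through eIF2, had 11 of 15 higher and 4 lower, from Slc7a11 (5.85) and Atf3 (4.11) to Phgdh (-4.47) and Vldlr (-2.49). Genes of the mTOR pathway were split with 8 of 22 higher and 8 lower. Ddit4l (2.44) and Rps6ka2 (2.01) rose, and the mTOR inhibitor Deptor (-2.44) and the Eif4e kinase Mknk2 (-2.08) fell. Mtor itself fell by 0.84, named here after its value was seen. Ribosome rescue and quality control had 3 of 11 higher and 4 lower, with Ascc3 (0.66) and Denr (0.63) up, and Gtpbp1 (-0.63) and Eif2d down.

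Markers of cell types moved between the same groups. All 8 adipocyte markers were lower, with sums of 307607 to 467230 before grafting and 6112 to 24101 in the grafts. All 7 macrophage markers were higher (21009 to 23810, then 186765 to 195969), as were all 6 neutrophil markers (726 to 862, then 57692 to 92211), 5 of 6 fibroblast markers (125600 to 163679, then 810686 to 1333810) and all 6 proliferation genes (2235 to 3323, then 8174 to 10446). T and NK cell markers were lower, 6 of 6 (2595 to 4091, then 217 to 547), as were the 4 listed of 6 B and plasma cell markers (4040 to 8370, then 128 to 340). Of 6 endothelial markers 3 were listed, and 2 of those were lower (sums of the 3 were 5867 to 6857, then 2192 to 3148). Pecam1, Cdh5 and Vwf were not in the table and were not analysed here. The 1 listed epithelial marker of 4 was higher (29.5 to 38.5, then 51.2 to 89.0). No listed marker was at 0 throughout a group. In whole tissue a change in the number of cells of a type and a change of RNA per cell cannot be told apart, and the part of these shifts in the ribosomal protein and factor results was not tested.

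Replicate 3 from before grafting was lower on median in short than in long ribosomal protein genes. Relative to the other 2, replicate 3 from before grafting had a median log2 difference of -0.17 over the 72 genes, -0.30 over the 24 with the shortest coding length (up to 405 bases) and -0.11 over the 24 longest (from 588 bases). Across genes, which share these libraries and are not independent replicates, Spearman's rho between coding length and that difference was 0.35. Some genes departed from this relation: Rpl39 (153 bases) differed by -0.08 and Rpl8 (771 bases) by -0.41. For Rps29 that replicate held 1332 against 2017 and 2541, and for Rpl38 907 against 1425 and 1439. The log2 fold change was 0.82 for the shortest and 0.71 for the longest of these genes (rho -0.27), and without that replicate 0.75 and 0.65 (rho -0.17).

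**Figure D5:**
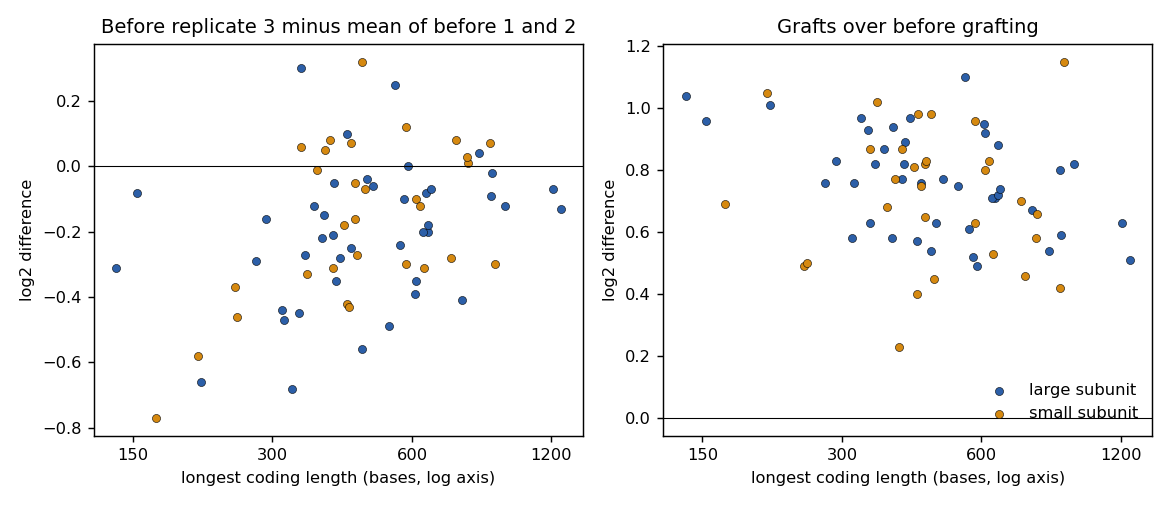
Longest annotated coding length (x axis, bases, log scale) of 72 ribosomal protein genes against the log2 difference of before replicate 3 from the mean of before replicates 1 and 2 (left) and against the log2 fold change of grafts over before grafting (right), blue for the large and orange for the small subunit. The 24 shortest genes have a median of -0.30 on the left, with wide scatter, while the right panel shows all genes above 0 at every length.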

How the data were processed

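Each deposited value is a signal per gene, the authors' reads over a size factor for that library. This was read from the values: 100% were whole multiples of 1 step within 0.01 reads. The steps ran from 0.96979 to 1.01304, and where a step is so near 1 the division is hard to verify, so count tests were not run. Per the submitters' processing notes, Bowtie 0.12.2 and HISAT2 2.0.5 were used; coordinates match GRCm38, with 12151 of 12163 listed genes found in GENCODE M21. The sources used here do not give the counter, the strand use or the gene filter. The deposited table holds mainly genes that differed: all 77 ribosomal protein and all 46 factor genes tested had an unadjusted p under 0.05.

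The model was limma 3.58.1 (R 4.3.3) on log2(value + 1) (mean trend, robust, group as the only term, two-sided), over genes with at least 10 in at least 3 of 6 libraries. Benjamini-Hochberg adjustment ran over 55450 annotated genes, unlisted ones entered at a p of 1, and calls were made at an adjusted p under 0.05. The script was tested on simulated data. A fold change on this scale understates the change of low genes. Tables used Python 3.11.15, and ± is the SD of 3 libraries.

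Members and lists were chosen with earlier results of these data known. Values in every library are given for the highest member of each role, the largest called rise and fall, called members against their role's direction, paralog pairs and the 5 largest changes each way; other genes were chosen after their values were seen. Alternatives covered pseudocounts of 0.5 and 5, no filter, 4 scalings, a replicate block, adjustment over tested genes, pseudogene sums, membership and each library left out.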

Additional observations from a re-analysis of the deposited data

How the results depend on the processing

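Ribosomal protein genes called higher numbered 62 to 71 with 0 lower in the planned settings other than adjustment over tested genes alone, and 63 to 69 with 1 library left out. Adjustment over tested genes alone gave 77. It also called 5461 of all 10854 genes tested higher and 5308 lower, so nearly every gene was called and its counts follow direction alone. The median log2 fold change of ribosomal protein genes, 0.76, was 0.65, 0.64 and 0.57 after rescaling by median ratios, equal totals and equal upper quartiles. It was 0.69 to 0.83 with 1 library left out. The median of all tested genes moved from 0.28 to 0.17, 0.15 and 0.09 under these scalings. For factors and regulators 15, 14 and 14 were called higher under the same scalings in place of 23, and their median of 0.41 became 0.30, 0.28 and 0.22, and 0.33 by median ratios of other genes. With adjustment over tested genes alone, which called nearly every gene tested, 37 factors and regulators were higher and 9 lower. Without regulators 3 were lower in place of 7. Rescaled to the ribosomal protein members, 3 were higher and 16 lower and the median turned to -0.34, which follows from that setting's construction. With 1 library left out 16 to 20 factors were higher and 5 to 7 lower, with a median of 0.35 to 0.44, and the log2 difference of the ribosomal protein to factor ratio was 0.35 to 0.42 against 0.38. Over all genes 3752 to 4130 were then higher and 3326 to 4014 lower.

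No pairing of libraries by replicate number was seen in deviations from the group means (correlations across genes of -0.157, -0.127 and 0.0407). Such weak values do not settle whether the libraries were paired. With the replicate block 69 ribosomal protein genes were higher and 0 lower, 17 factors higher and 6 lower, the medians were 0.76 and 0.41, and 3912 genes in all were higher and 3644 lower. The calls of Rpl7l1, Eif1 and Eif4ebp1 were among those not kept under it (adjusted p = 0.071, 0.0648 and 0.0902). Count-based tests were planned and not run. The full depth is unknown, so genes near 10 normalized counts, such as Rpl36al, Eef1akmt3 and Eif4ebp3, are the least certain.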

Other observations

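Genes named as pseudogenes of ribosomal proteins, copies whose reads can be shared with the parent gene, numbered 40 in the table, 37 of them with a noncoding biotype. Of 35 tested, 25 were higher and 0 lower in the grafts, against 41.3% higher and 39.2% lower over all genes tested. The median log2 fold change of the pseudogenes was 0.97, against 0.28 for all genes tested. Their summed value was 10404, 8829 and 9366 before grafting and 17926, 16687 and 14962 in the grafts, against 317916 to 362203 and 525543 to 604840 for the ribosomal protein genes. Adding the 35 whose name gives a listed member as parent kept all 70 ribosomal protein calls.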
